A study of Mus musculus with 24 samples.

Results

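R-spondins are secreted proteins that raise the response of a cell to Wnt, and the 9 genes described here code for the 4 R-spondins (Rspo1, Rspo2, Rspo3 and Rspo4), their 3 Lgr receptors (Lgr4, Lgr5 and Lgr6) and the 2 membrane ubiquitin ligases that they act on (Znrf3 and Rnf43). The genes were chosen by name, 9 of the 25755 genes listed in sorted dermal papilla (DP) cells, and each had 1 entry in the deposited values. The ligases remove Frizzled receptors from the cell surface and so lower Wnt signaling. An R-spondin that binds an Lgr receptor together with Znrf3 or Rnf43 takes the ligase off the surface, and Frizzled receptors remain. The DP is the mesenchymal cluster at the base of the hair follicle, and its signals direct the epithelial cells through telogen, the resting phase, and anagen, the growth phase.

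The study asked what Hdac1 and Hdac2, histone deacetylases, do in the DP over the hair cycle, and RNA was sequenced from the DP cells of control and double mutant (dM1/2) mice at P20, P24, P28 and P60, with 3 libraries of each genotype at each age and 24 in all. All mice carried Corin-Cre, which is active in the DP after birth, and a YFP reporter by which DP cells were sorted in 2 rounds from the skin of individual mice. In dM1/2 mice both Hdac1 and Hdac2 were homozygous for floxed alleles, while the control group combined genotypes with floxed Hdac1, floxed Hdac2 or floxed copies of each, including mice homozygous at a single gene. The labels did not say which control genotype a library had. P20 is the first telogen and was sampled from females, P24 and P28 are early and mid-anagen of the second cycle and were sampled from males, and P60 is the second telogen and was sampled from either sex. Age, hair-cycle stage, sex and sequencing depth go together in this design. Apart from P24 against P28, their parts in a difference between ages cannot be told apart. P24 and P28 were both sampled from males and overlapped in depth, and between them age and stage go together.

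The anagen libraries were deeper, with 35469841 to 49331751 reads on genes at P24 and 37171260 to 48331795 at P28, than the telogen libraries, with 11635062 to 13369732 at P20 and 8171944 to 9724000 at P60. The values below are normalized reads, that is, read counts divided by the size factor of each library, and a single read was worth between 0.338 and 2.87 of them. All 12 DP markers had more than 3 reads in at least 1 library of every group and summed to between 19916 and 411684 normalized reads, while the 12 keratinocyte markers summed to between 200.07 and 941, with Krt14 between 0 and 118. Markers of other fibroblasts (Dpp4, Pi16, Dlk1, Lum and Cd34) summed higher than the DP markers in every telogen control. In P20 controls they summed to 67706 to 105044, against 40729 to 50436 for DP markers. In P60 controls these ranges were 86793 to 95413 and 31786 to 45161. In dM1/2 they were 47639 to 57287 and 52283 to 68948 at P20, and 81334 to 123977 and 19916 to 43616 at P60. In P24 controls they were 9436 to 32588 and 317807 to 411684. The deleted Hdac1 stood at 675, 668 and 668 in the P24 controls against 209, 188 and 116 in dM1/2, a log2 difference of -2.01 (SE 0.22, adjusted p = 0.00167) by limma, but at P28 the genotypes overlapped, with 214, 529 and 105 in controls and 190.2, 149 and 126 in dM1/2. P28 control 3 lay below every P28 dM1/2 library. At P20 Hdac1 was lower in every dM1/2 library without passing the adjustment (log2 difference -0.72, SE 0.22, adjusted p = 0.122). At P60 Hdac1 overlapped as well, at 506, 359.9 and 376 in controls and 371, 347 and 318 in dM1/2 (log2 difference -0.25, SE 0.19, adjusted p = 0.986), and reads from outside the floxed part of a gene do not check its deletion. Hdac2 transcript was called different at no age, with log2 differences from -0.01 at P20 to 0.27 at P24. The P28 controls stood apart from one another. The other-fibroblast markers summed to 28826, 67154 and 4167 in controls 1 to 3, and Corin, a DP marker, stood at 41112, 30326 and 75255. For the genes described, P28 results are therefore also given without control 2 and without control 3. Corin, whose promoter drives the Cre, was itself lower in dM1/2 by a log2 difference of -1.98 (SE 0.20, adjusted p = 0.00139) at P24 and -3.33 (SE 0.34, adjusted p = 0.000836) at P28. A smaller share of DP cells among the sorted cells and less RNA per cell cannot be told apart in bulk libraries. During anagen the study counted more DP cells per follicle in mutant than in control mice. A count per follicle does not give the share of DP cells in a sorted library, which was not tested.

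The 4 R-spondin genes lie on 4 chromosomes in GRCm38 (GENCODE M21), Rspo1 (ENSMUSG00000028871, chr4:124986430-125009099, plus strand), Rspo2 (ENSMUSG00000051920, chr15:43020794-43170826, minus strand), Rspo3 (ENSMUSG00000019880, chr10:29452416-29535867, minus strand) and Rspo4 (ENSMUSG00000032852, chr2:151842927-151874668, plus strand). An antisense gene is annotated across exons of Rspo3, and since the strand setting of the read counting was not given in the sources used here, reads from that gene and from Rspo3 cannot be told apart. The RefSeq promoter table (GRCm38.p6) matched 5 of the 9 genes, among them Rspo1 and Rspo4. Their 250 bases before the start site (chr4:124986180-124986429, plus strand, and chr2:151842677-151842926, plus strand) are shown, and Rspo2 and Rspo3 had no entry. Capitals mark the GC box (GGGCGG, or CCGCCC on the opposite strand) and the CCAAT box (CCAAT, or ATTGG on the opposite strand), which were searched on both strands with the TCF/LEF core (CTTTG followed by a pair of bases that are each A or T).
Rspo1: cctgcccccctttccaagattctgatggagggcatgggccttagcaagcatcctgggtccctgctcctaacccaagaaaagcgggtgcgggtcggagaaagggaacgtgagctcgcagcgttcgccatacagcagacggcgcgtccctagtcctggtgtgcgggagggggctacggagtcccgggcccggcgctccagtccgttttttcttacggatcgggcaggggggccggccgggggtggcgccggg
Rspo4: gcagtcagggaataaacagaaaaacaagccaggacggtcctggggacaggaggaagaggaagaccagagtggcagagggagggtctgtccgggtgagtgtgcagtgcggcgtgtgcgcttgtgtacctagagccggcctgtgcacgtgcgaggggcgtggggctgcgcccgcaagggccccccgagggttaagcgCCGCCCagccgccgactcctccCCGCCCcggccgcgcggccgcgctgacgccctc

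The Rspo1 promoter had a GC content of 66.8% with 22 CpG sites and none of the motifs searched. The Rspo4 promoter had a GC content of 69.6% with 24 CpG sites and 2 GC boxes, which began 55 and 33 bases before the start site. Over the 32851 promoters of the table cut to the same length, the medians were 52.4% GC and 6 CpG sites. A GC box was in 32.7% of these promoters, a CCAAT box in 33.8% and a TCF/LEF core in 14.8%. No TCF/LEF core was in any of the promoters printed here, which says only that these letters are not in these windows.

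In the control libraries, all 4 ligand genes were low in telogen and high in anagen. The test over the 4 ages (limma F test on log2(normalized reads + 1), genes with a mean of at least 10, Benjamini-Hochberg adjustment over all genes) called 6 of the 8 genes that passed the filter, namely the 4 R-spondins, Lgr4 and Lgr6, where 49% of all genes tested were called. Rnf43 did not pass the filter at any age and was not tested. The cell type markers changed with age as well. Of the 12 DP markers, 11 were called higher and 0 lower from P20 to P24 (median log2 difference 3.02). From P28 to P60, 0 were called higher and 8 lower (median -2.14). The medians of the 5 other-fibroblast markers were -1.78 and 2.28 in these comparisons. The part of these markers in the course of the members over age was not tested.

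Rspo1, which is also known for its part in ovary development, stood in the controls at 1136, 844 and 918 normalized reads at P20, at 3456, 3859 and 3886 at P24, at 4806, 4010.5 and 5544 at P28 and at 1091, 1442 and 1210.4 at P60. Every anagen control lay above every telogen control. From P20 to P24 it rose 3.87-fold, a log2 difference of 1.96 (SE 0.16, adjusted p = 2.17e-05), and from P28 to P60 it fell by 1.94 on the log2 scale (SE 0.16, adjusted p = 2.15e-05). Between P24 and P28 the difference of 0.35 did not pass the test (adjusted p = 0.237, 95% interval 0.00 to 0.69), although every P28 control lay above every P24 control.

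Rspo2, whose loss impairs limb and lung development, stood at 177, 127 and 212 in the P20 controls, 7873, 8123 and 8405 in the P24 controls, 7485, 3467 and 10106 in the P28 controls and 254, 222 and 242 in the P60 controls. It had the largest rise of the 4 ligands from P20 to P24, 47.3-fold, a log2 difference of 5.59 (SE 0.32, adjusted p = 1.72e-06). The P24 controls lay close together, while P28 control 2 was below the other 2 P28 controls. From P28 to P60 it was 29.3-fold lower (log2 difference -4.74, SE 0.32, adjusted p = 4.86e-06).

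Rspo3, which has roles in blood vessel and placenta development, stood at 742, 598 and 906 in the P20 controls, at 6684, 8959 and 6821 at P24, at 10816, 6638 and 12189 at P28 and at 369, 369 and 623 at P60. Its P20 to P24 rise was 10-fold (log2 difference 3.33, SE 0.27, adjusted p = 2.17e-05). Its level at P60 was 21.8-fold below that at P28 (log2 difference -4.44, SE 0.27, adjusted p = 2.61e-06).

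Rspo4, whose loss in humans leaves the nails absent, was the only ligand called higher at mid-anagen than at early anagen. In the controls it stood at 356, 311 and 430.2 at P20, 3273, 7363 and 781 at P24, 16691, 16662 and 37365 at P28 and 292, 393 and 355 at P60. The P24 controls spread widely, with the lowest at 781 and the highest at 7363, and every P28 control lay above all of them. The rise from P24 to P28 was 6.19-fold (log2 difference 3.04, SE 0.62, adjusted p = 0.0183), and it was the only one of the 8 genes called in that comparison, where 5.64% of all genes were called. It kept its call in all 6 fits that left out a library, with log2 differences from 2.15 without P24 control 3 to 3.77 without P24 control 2. The fold change was 11.6 without P24 control 2 and between 4.38 and 7.1 without any other of the 6 libraries. From P28 to P60 Rspo4 was 68-fold lower (log2 difference -5.98, SE 0.62, adjusted p = 0.000123).

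Among the 8 genes tested, 6 were called from P20 to P24 (background 32.7%), 7 from P28 to P60 (background 30%) and 0 between the telogens at P20 and P60 (background 8.36%). In the last of these, Rspo1, Rspo3 and Lgr4 had an unadjusted p under 0.05, and edgeR and DESeq2 called 0 of the 8. For each ligand every anagen control lay above every telogen control. Between P20 and P60 no ligand passed the adjustment over all genes. The log2 difference was -0.75 for Rspo3 (95% interval -1.33 to -0.16, adjusted p = 0.104) and 0.37 for Rspo1 (0.02 to 0.72, adjusted p = 0.157), and both intervals left out 0, as did that of Lgr4. The intervals of Rspo2 and Rspo4 held 0. Between P24 and P28 the call was that of Rspo4, and Rspo4, Lgr4 and Rspo1 had an unadjusted p under 0.05. The shares of all genes with an unadjusted p under 0.05 in these comparisons are not given here, so these genes have no background. The widest of these 95% intervals between P20 and P60, that of Rspo4, ran from -1.44 to 1.29.

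**Figure D1:**
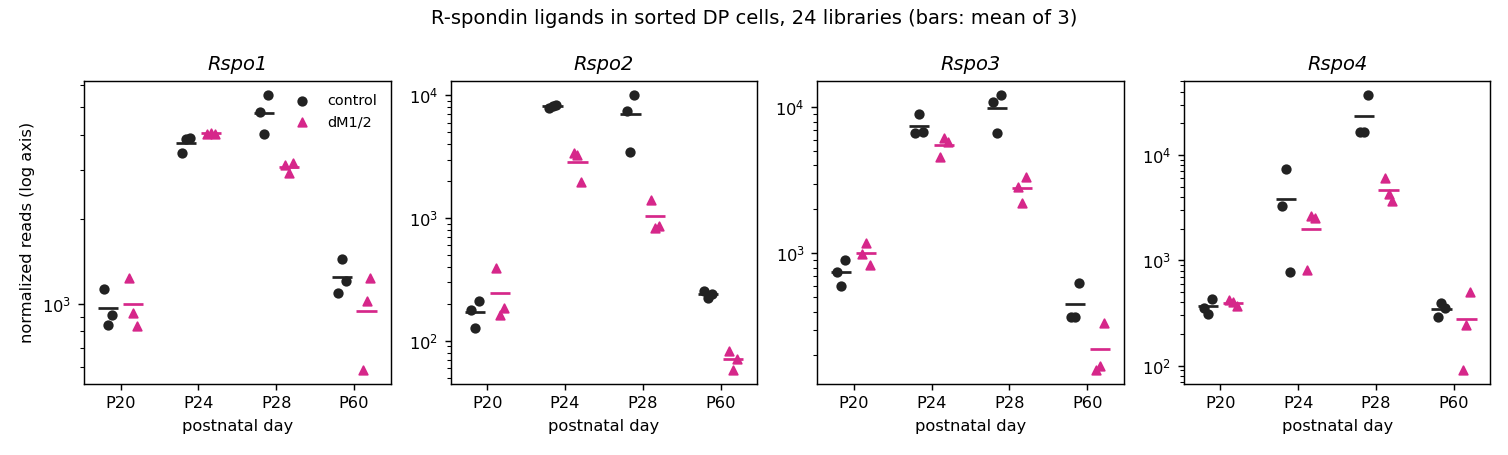
Normalized reads of Rspo1, Rspo2, Rspo3 and Rspo4 in each of the 24 libraries (log axis, with its own range in each panel) against postnatal day, with circles for controls, triangles for dM1/2 and bars for the mean of 3 libraries. All 4 genes are higher at P24 and P28 than in telogen, and at P28 every dM1/2 library lies below every control, for Rspo2 between 834 and 1415 against 3467 to 10106.

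Between the genotypes, none of the ligands was called different at P20, Rspo2 was lower in dM1/2 at P24, and all 4 ligands were lower in dM1/2 at P28. At P20, limma called 0 of the 8 genes, where 0.433% of all genes were called, and 0 had groups that did not overlap, where 12.1% of all genes lay higher and 13.3% lower in every dM1/2 library than in every control. At an unadjusted p under 0.05, 2735 of the 13845 genes tested passed at P20. edgeR called 78 genes and DESeq2 663 genes at P20, and neither called any of the 8. Among the 8, Rspo3 and Znrf3 had an unadjusted p under 0.05 at P20. At P24, 1 of the 8 genes was called, where 26.6% of all genes were called (11.8% lower). At P28, 5 of the 8 were called, 4 of them lower and 1 higher, where 35.5% of all genes were called (15.6% lower, 20% higher).

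Rspo2 in the dM1/2 libraries stood at 391, 164 and 187 at P20, 3373, 3283 and 1962 at P24, 1415, 834 and 858 at P28 and 83.3, 57.8 and 70.6 at P60. The genotypes overlapped at P20 and did not overlap at any later age. At P24 Rspo2 was 2.83-fold lower in dM1/2 (log2 difference -1.54, SE 0.21, adjusted p = 0.00307), and at P28 it was 6.78-fold lower (log2 difference -2.67, SE 0.41, adjusted p = 0.00339). The P28 log2 difference became -3.11 when control 2 was left out and -2.34 when control 3 was, both past the test. At P60 the difference of -1.76 (SE 0.23) did not pass the adjustment over all genes (adjusted p = 0.416), although every dM1/2 library lay below every control.

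No gene of the whole table was called at P60 by limma (0%) or edgeR, while 525 of 14042 genes had an unadjusted p under 0.05 and DESeq2 called 26 genes. Among the 8 members tested, 4 had an unadjusted p under 0.05. DESeq2 on the whole reads called Rspo2 (adjusted p = 7.69e-06) and Lgr6 (adjusted p = 0.00625) at P60. A limma fit over all 24 libraries called Rspo2 (adjusted p = 0.0439). In reads, P60 dM1/2 held 33, 23 and 30 of Rspo2 against 121, 93 and 105 in the controls.

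Rspo3 in the dM1/2 libraries stood at 989, 1182 and 830.4 at P20, 4536, 6188 and 5764 at P24, 2849, 2211 and 3323 at P28 and 159, 168 and 334 at P60. Its P28 level was 3.54-fold lower than in controls (log2 difference -1.79, SE 0.27, adjusted p = 0.00306), with no overlap. It was -2.06 without P28 control 2 and -1.62 without P28 control 3, and the call held in all 6 fits that left out a library. The P24 groups did not overlap either, but the log2 difference of -0.45 did not pass the test (adjusted p = 0.107, 95% interval -0.86 to -0.03). At P60 the groups were also apart, with a difference of -1.08 and an adjusted p of 0.986.

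Rspo4 in dM1/2 stood at 421, 398 and 369.9 at P20, 815, 2663 and 2516 at P24, 6097, 4232 and 3683 at P28 and 90.9, 244 and 501 at P60. It was 5.05-fold lower than in the controls at P28 (log2 difference -2.26, SE 0.37, adjusted p = 0.00419), and every dM1/2 library was below the lowest control at 16662. The P28 difference was -2.45 without control 2 and -1.87 without control 3, and the call held in all 6 fits that left out a library. At P24 and at P60 the genotypes overlapped, and the 95% interval at P24 ran from -2.46 to 1.27. Without P24 control 3, the library at 781, the P24 difference was -1.48 (adjusted p = 0.0809).

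Rspo1 showed the smallest change of the 4 ligands at P28. In dM1/2 it stood at 1242, 932 and 838 at P20, 4031, 4055 and 4038 at P24, 3129.6, 2929 and 3160.3 at P28 and 583, 1026 and 1236 at P60. At P28 it was 1.56-fold lower (log2 difference -0.63, SE 0.15, adjusted p = 0.0181), and the call was lost when P28 control 1, dM1/2 2 or dM1/2 3 was left out, with log2 differences between -0.75 and -0.52 over the 6 libraries left out in turn (-0.75 without control 2 and -0.52 without control 3). At P24 every dM1/2 library lay above every control, by a log2 difference of 0.12 that did not pass the test (adjusted p = 0.481).

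Where groups of 3 against 3 do not overlap, the exact two-sided permutation test gives p = 0.1, the smallest it can give here. At P24 Rspo1 was higher and Rspo2 and Rspo3 were lower without overlap, where 23.8% of all genes were higher and 21% lower in that way. At P28 the 4 ligands and Lgr4 were lower and Lgr6 was higher without overlap, where 23.3% and 28% of all genes were. At P60 Rspo2, Rspo3 and Lgr6 were lower and Lgr5 was higher without overlap, where 4.08% and 4.79% of all genes were.

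Within the P28 controls the ligands followed the libraries. Rspo1, Rspo2 and Rspo3 were lowest in control 2 and highest in control 3, as was Corin, and Rspo4 was highest in control 3. The DP markers summed to 252582, 150643 and 384657 in P28 controls 1 to 3 and to 121681, 103825 and 120399 in P28 dM1/2. Of the 12 DP markers, 3 were called higher and 2 lower in dM1/2 at P28, with 3 higher and 8 lower without P28 control 2 and 4 higher and 2 lower without P28 control 3. At P24, 1 was called higher and 6 lower. The median log2 difference of the 12 markers was -0.61 at P24 and -0.63 at P28, beside -0.01 and 0.00 over all genes tested. At P28 this median was -1.03 without control 2 and -0.31 without control 3. The part of these values in the lower ligand levels of dM1/2 was not tested. Of the 8 genes tested, 6 were called at P28 without control 2, the added gene being Lgr4, and 5 without control 3. The shares of all genes called when a P28 library was left out are not given here, so counts from such fits have no background.

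The Lgr receptors are spread over 3 chromosomes, Lgr4 (ENSMUSG00000050199, chr2:109917647-110014257, plus strand), Lgr5 (ENSMUSG00000020140, chr10:115450311-115587780, minus strand) and Lgr6 (ENSMUSG00000042793, chr1:134983301-135105276, minus strand). Of these, Lgr4 is broadly expressed across tissues, while Lgr5 and Lgr6 are known as markers of epithelial stem cells of the follicle and the skin. The promoter windows of Lgr4 and Lgr6 (RefSeq, GRCm38.p6, chr2:109917397-109917646, plus strand, and chr1:135105277-135105526, minus strand) are shown, and the promoter table had no entry for Lgr5. Capitals mark the same motifs as above.
Lgr4: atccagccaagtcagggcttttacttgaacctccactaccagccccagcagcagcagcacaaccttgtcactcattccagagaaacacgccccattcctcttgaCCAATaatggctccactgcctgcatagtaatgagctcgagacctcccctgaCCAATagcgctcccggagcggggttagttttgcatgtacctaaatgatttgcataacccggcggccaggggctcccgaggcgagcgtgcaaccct
Lgr6: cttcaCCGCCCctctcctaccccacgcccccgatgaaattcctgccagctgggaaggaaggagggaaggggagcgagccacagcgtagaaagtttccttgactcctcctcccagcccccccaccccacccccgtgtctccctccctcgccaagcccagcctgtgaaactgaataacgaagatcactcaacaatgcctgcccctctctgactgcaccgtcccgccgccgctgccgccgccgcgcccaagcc

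The Lgr4 window had 55.6% GC, 10 CpG sites and 2 CCAAT boxes that began 146 and 95 bases before the start site. The Lgr6 window had 65.2% GC, 16 CpG sites and 1 GC box, 245 bases before the start site. Neither held a TCF/LEF core.

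Lgr4 rose with anagen in the controls. Its control levels were 2028, 1707 and 2237 at P20, 4438, 3696 and 5447 at P24, 3057, 2607 and 3853 at P28 and 1484, 1630.2 and 1236 at P60. The rise from P20 to P24 was 2.27-fold (log2 difference 1.18, SE 0.19, adjusted p = 0.00131) and the fall from P28 to P60 was 2.19-fold (log2 difference -1.12, SE 0.19, adjusted p = 0.00184). From P24 to P28 the log2 difference was -0.51 (95% interval -0.93 to -0.10), which did not pass the adjustment over all genes (adjusted p = 0.143).

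In dM1/2, Lgr4 stood at 2439.9, 2118 and 2223 at P20, 3176, 3901 and 3033 at P24, 2559, 1895 and 2061 at P28 and 1830.3, 1295 and 1405 at P60. No single age passed the limma test. At P28, where the groups did not overlap, the log2 difference was -0.54 (SE 0.19, adjusted p = 0.0638), and it passed without P28 control 2 (-0.67, adjusted p = 0.03) and not without P28 control 3 (-0.39, adjusted p = 0.102).

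Lgr6 ran opposite to the ligands in the controls, at 2622, 833 and 1121 at P20, 405, 147 and 672 at P24, 147, 323 and 102 at P28 and 1131, 1179.7 and 2068 at P60. Every anagen control lay below every telogen control. The fall from P20 to P24 had a log2 difference of -1.97 (SE 0.59, adjusted p = 0.0266), and this call was lost without P20 control 1, P20 control 3 or P24 control 2. The rise from P28 to P60 was 7.66-fold (log2 difference 3.04, SE 0.59, adjusted p = 0.00403) and kept its call in all 6 fits that left out a library of P28 or P60. Without P28 control 2 it was 11.7-fold.

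In dM1/2 the Lgr6 levels were 2349, 1531 and 1653 at P20, 393, 310.4 and 227 at P24, 1314, 2389 and 1523 at P28 and 159, 375 and 569.5 at P60. The genotypes overlapped at P20 and P24. At P28 the lowest dM1/2 library, at 1314, was above the highest control, at 323, and at P60 the highest dM1/2 library, at 569.5, was below the lowest control, at 1131.

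The P28 difference was 9.15-fold, on the log2 scale 3.31 (SE 0.43, adjusted p = 0.00184), and Lgr6 was the 1 member called higher at P28. It was 3.77 without P28 control 2 and 2.95 without P28 control 3, and 14-fold without P28 control 2. It kept its call in all 6 fits that left out a library and under all 7 other alternatives. The P60 difference of -2.11 (SE 0.45) did not pass (adjusted p = 0.986). The difference between these 2 effects passed, at 5.42 (SE 0.70, adjusted p = 0.00162) over the 12 libraries of P28 and P60, where 18.2% of all genes were called, and it was the only one of the 8 genes called. This comparison was added after the values had been seen.

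Markers of other cell types were read beside the Lgr6 values. In P28 dM1/2 the 12 keratinocyte markers summed to 231, 333 and 366, against 398, 386 and 201 in the P28 controls, and the sums overlapped. Of the 8 keratinocyte markers tested at P28, 1 was called higher in dM1/2, Dsp (log2 difference 1.58, SE 0.50, adjusted p = 0.0465), and 0 lower. The part of these markers in the Lgr6 values was not tested. The other-fibroblast markers summed to 9839, 19908 and 20606 in P28 dM1/2, within the range of the controls. At P60 dM1/2 1, the library with the lowest Lgr6, the endothelial markers summed to 6059 and the DP markers to 19916, the highest and lowest sums of these lists at P60. Without this library the P60 difference of Lgr6 was -1.60.

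Limma called no difference in Lgr5 between genotypes at any age. Its control values were 466, 914 and 723 at P20, 169, 176 and 103 at P24, 129.6, 525 and 17.4 at P28 and 338, 309.8 and 311 at P60. The P28 controls had the widest spread, with control 2 above and control 3 below all P28 dM1/2 libraries, which stood at 55.01, 86.6 and 157. Control 2 was also the library with the highest sum of other-fibroblast markers and control 3 that with the lowest, and the part of those cells in the Lgr5 values was not tested. The log2 difference at P28 was -0.24 with a 95% interval of -2.91 to 2.44, and it turned to 0.90 without control 2 and to -1.51 without control 3. At the other ages dM1/2 held 450.2, 589 and 605 at P20, 153, 54.8 and 73.7 at P24 and 608, 432 and 379 at P60. The P60 groups did not overlap, with a difference of 0.54 (adjusted p = 0.986).

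The limma F test over the 4 ages did not pass for Lgr5 (adjusted p = 0.0776), nor did its difference from P20 to P24 (-2.21, adjusted p = 0.0722). DESeq2 called that difference from P20 to P24 (adjusted p = 0.0107), as did the limma fit over all 24 libraries (adjusted p = 0.0217). edgeR did not (adjusted p = 0.0563). Without P28 control 2 the control difference from P28 to P60 passed, at 2.71 (adjusted p = 0.00767) in place of 1.57 (adjusted p = 0.19).

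**Figure D2:**
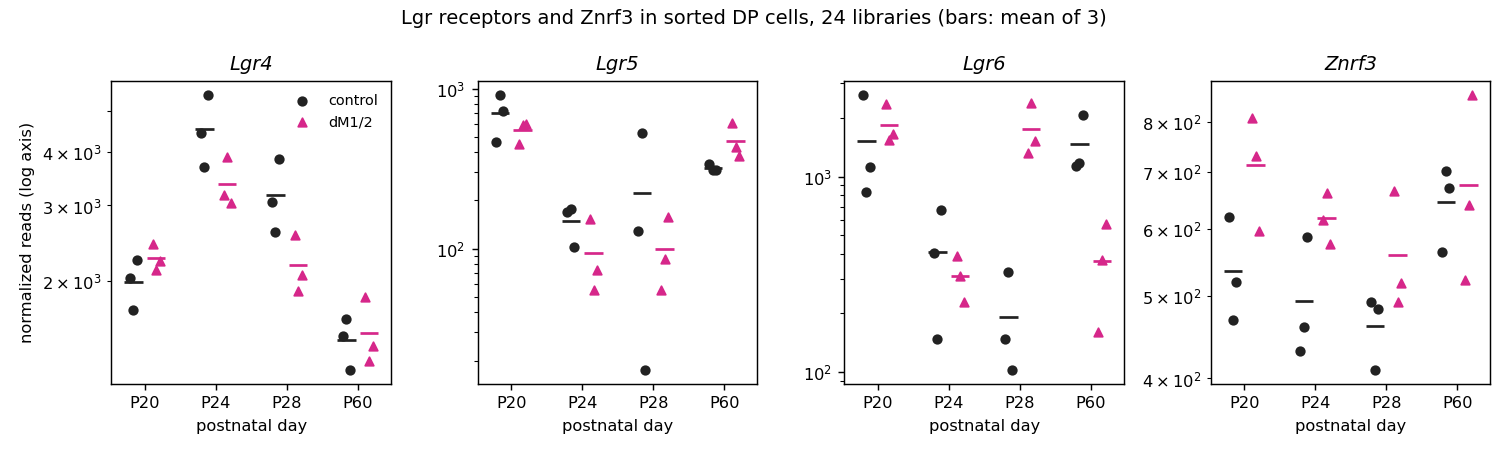
Normalized reads of Lgr4, Lgr5, Lgr6 and Znrf3 in each library (log axis, with its own range in each panel) against postnatal day, drawn as for the ligands. Lgr6 lies higher in dM1/2 at P28 (1314 to 2389 against 102 to 323) and lower at P60 (159 to 569.5 against 1131 to 2068), and Znrf3 stays between 409 and 861 in all libraries.

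The ligases differed from the other genes in that 1 was nearly flat and the other nearly absent. Znrf3 (ENSMUSG00000041961, chr11:5276324-5444847, minus strand) stood in the controls at 619, 468 and 519 at P20, 431, 459 and 587 at P24, 492, 409 and 482 at P28 and 563, 701 and 669 at P60. In dM1/2 it stood at 809, 730.3 and 596 at P20, 613, 661 and 576 at P24, 665, 492 and 518 at P28 and 523, 639 and 861 at P60. The genotypes overlapped at every age. Its log2 differences between genotypes in telogen were 0.41 at P20 and 0.04 at P60, and in anagen 0.33 at P24 and 0.27 at P28, and none passed the test (lowest adjusted p = 0.139, at P24). The P28 difference was 0.18 without control 2 and 0.30 without control 3. The widest 95% interval, at P60, ran from -0.44 to 0.53.

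Over the control ages Znrf3 did not pass the F test (adjusted p = 0.0898). Its difference from P28 to P60 passed at 0.48 (SE 0.16, adjusted p = 0.0416), and this call was lost in 5 of the 6 fits that left out a library.

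Rnf43 (ENSMUSG00000034177, chr11:87662722-87735539, plus strand) was at or near 0 in every library. It held 0 reads in all 3 P20 controls and at most 9 reads, in P24 control 1, elsewhere. In normalized reads it ranged from 0 to 7.54 over the 24 libraries, and a count of 0 in a library allows up to 3 reads, which is at most 8.6 normalized reads at P20 and 7.57 at P60, and 1.51 at P24 and 1.92 at P28. No difference in Rnf43 was detectable at this depth.

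**Figure D3:**
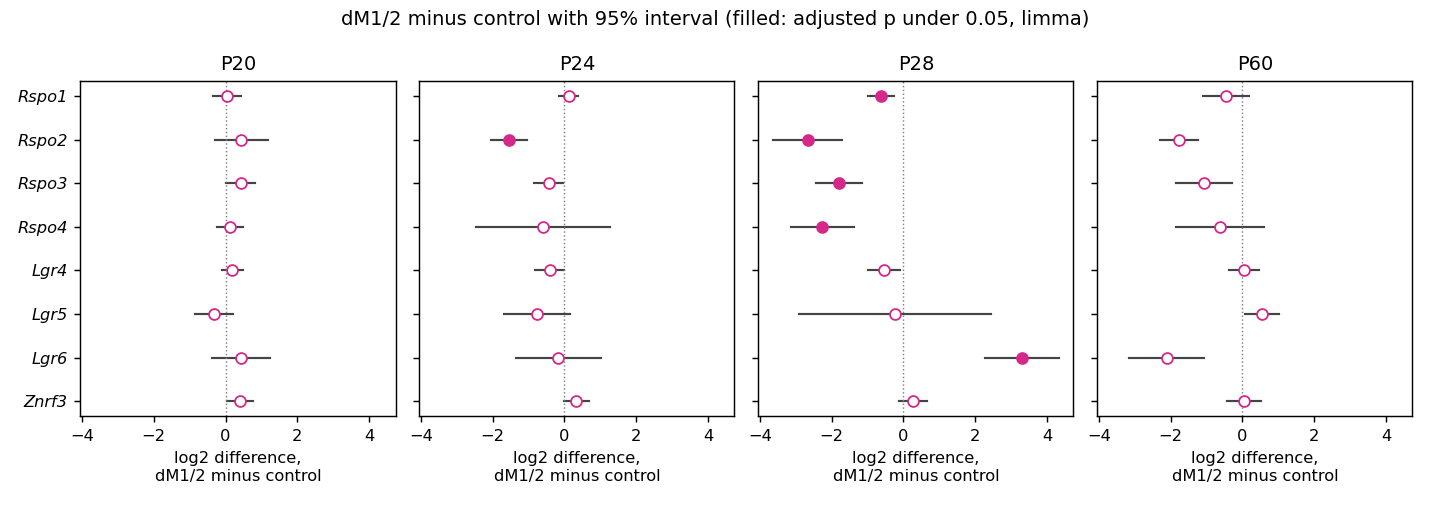
Log2 difference of each gene, dM1/2 minus control, at the 4 ages, with points for the limma estimate on log2(normalized reads + 1), lines for the 95% interval and filled points for an adjusted p under 0.05. Rspo2 is filled at P24 (-1.54), Rspo1, Rspo2, Rspo3, Rspo4 and Lgr6 are filled at P28 (-0.63, -2.67, -1.79, -2.26 and 3.31), and none is filled at P20 or P60.

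Direct tests asked if the genotype effect changed with age. Between P28 and P24 none of the 8 genes passed (background 0.707%), with the lowest adjusted p for Lgr6 (log2 difference 3.49, SE 0.75, adjusted p = 0.0649), Rspo1 (log2 difference -0.74, SE 0.17, adjusted p = 0.086) and Rspo3 (log2 difference -1.35, SE 0.34, adjusted p = 0.103). At an unadjusted p under 0.05, 4 of the 8 passed, edgeR called 0, and DESeq2 called Rspo1, Rspo3 and Lgr6. The shares of all genes that passed in these ways are not given here, so these counts have no background. Leaving out P28 control 2 also gave 3 calls, of the same 3 genes. Lower Rspo3, Rspo4 and Rspo1 at P28 but not at P24 was thus not shown to be a difference between these ages by limma.

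Between anagen and telogen, with the mean effect at P24 and P28 set against that at P20 and P60 over all 24 libraries, 4 of the 8 genes passed, where 30.2% of all genes did. Rspo2 had a more negative effect in anagen (log2 difference -1.45, SE 0.34, adjusted p = 0.00364), as did Rspo3 (log2 difference -0.79, SE 0.28, adjusted p = 0.0384) and Lgr4 (log2 difference -0.60, SE 0.18, adjusted p = 0.0154), while that of Lgr6 was more positive (log2 difference 2.41, SE 0.54, adjusted p = 0.00237). This contrast averages P20 with P60 and P24 with P28. For Rspo2 and Rspo3, dM1/2 stood higher on average at P20. Their effects at P60, given above, were more negative than those at P24, and neither was called between P28 and P60. The Lgr6 values of the genotypes overlapped at P24. The Rspo3 call held in 12 of the 24 fits that left out a library, and the calls of Rspo2, Lgr4 and Lgr6 held in all 24. The median over the 8 genes was -0.60, beside -0.03 over all genes tested.

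Levels of different genes were compared per kb of annotated exon length. In the telogen controls Rspo1 was the leading R-spondin, with 498 ± 78.2 normalized reads per kb at P20 and 644 ± 91.9 at P60 (mean ± SD, n = 3), and it made up between 47.8% and 69.4% of the summed R-spondin level per kb in these libraries. At P28 Rspo4 led in the controls with 9942 ± 5038 per kb, between 48.6% and 64.2% of the sum. In P28 dM1/2 Rspo4 was at 1969.8 ± 534 per kb and made up between 35.1% and 47.7%, and Rspo1, at 1586 ± 64.7 per kb, made up between 30% and 36.8% against 11.7% to 17.4% in the controls. The summed R-spondin level per kb was between 785 and 1011 in the P20 controls, between 11923 and 24542 in the P28 controls and between 4175 and 5385 in P28 dM1/2.

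Among the receptors, Lgr4 made up between 81.8% and 97.5% of the summed Lgr level per kb in the P28 controls and Lgr6 between 2.22% and 8.7%. In P28 dM1/2 the shares were between 47.4% and 68.8% for Lgr4 and between 30.3% and 51.3% for Lgr6. The summed Lgr level per kb overlapped between these groups, at 541 to 671 in controls and 588 to 679 in dM1/2. At P60 the shares of Lgr6 were between 35.9% and 55.7% in the controls and between 5.9% and 23.2% in dM1/2.

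**Figure D4:**
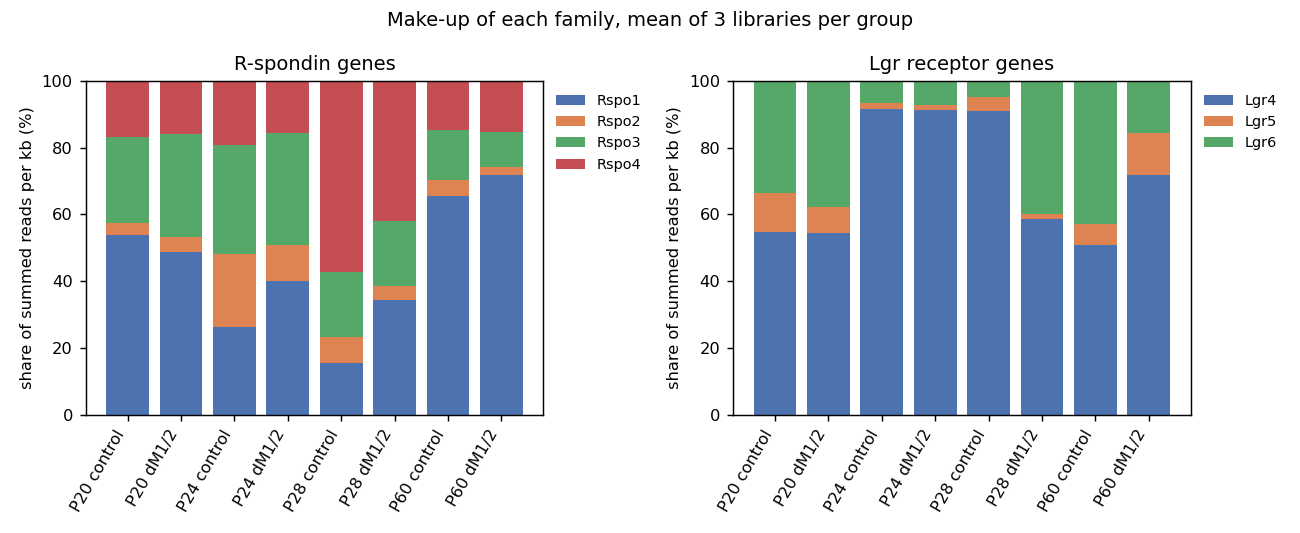
Share of each gene in the summed normalized reads per kb of the R-spondin genes (left) and of the Lgr receptor genes (right), as percent, with 1 stacked bar per group for the mean of 3 libraries. Rspo4 takes the largest share in the P28 controls (48.6% to 64.2% in single libraries), and Lgr6 takes 30.3% to 51.3% of the Lgr sum in P28 dM1/2 against 2.22% to 8.7% in the P28 controls.

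Genes of the Wnt receptors outside the Lgr family were called at about the rate of all genes at P28. Of a list of 17 Frizzled receptors, co-receptors, Dishevelled genes and Kremen genes, 16 passed the filter, and 0 rose and 1 fell in dM1/2 at P24, 3 rose and 3 fell at P28, and 0 were called at P20 and at P60. Of all genes, 35.5% were called at P28 (20% higher and 15.6% lower) and 26.6% at P24. The median log2 difference of the list at P28 was -0.08, beside 0.00 over all genes. Without P28 control 2, 3 rose and 3 fell, with Lrp5 in place of Kremen1. Without P28 control 3, 2 rose and 4 fell, with Fzd4 and Fzd6 in place of Dvl3 and Kremen1, and without P28 control 1, 2 rose and 2 fell. At P28 the Frizzled receptor gene Fzd1 fell (log2 difference -2.04, SE 0.27, adjusted p = 0.00181), and so did the Wnt co-receptor gene Lrp6 (log2 difference -0.76, SE 0.13, adjusted p = 0.00492) and Kremen1, a receptor for Dickkopf inhibitors (log2 difference -0.41, SE 0.12, adjusted p = 0.0312). The called genes that were higher were the Frizzled genes Fzd9 (log2 difference 1.70, SE 0.34, adjusted p = 0.00885) and Fzd10 (log2 difference 1.32, SE 0.29, adjusted p = 0.0133), and Dvl3, which relays the Frizzled signal in the cell (log2 difference 0.40, SE 0.11, adjusted p = 0.0284). The calls of Fzd1, Lrp6 and Fzd9 held in all 6 fits that left out a P28 library and that of Fzd10 in 5 of them, while that of Dvl3 held in 1 and that of Kremen1 in 0. Without control 2 and without control 3, the log2 differences were -2.29 and -1.76 for Fzd1, -0.70 and -0.79 for Lrp6, -0.38 and -0.38 for Kremen1, 1.85 and 1.69 for Fzd9, 0.98 and 1.41 for Fzd10, and 0.40 and 0.36 for Dvl3. At P24 the called gene was Fzd8 (log2 difference -0.53, SE 0.15, adjusted p = 0.035).

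Of a list of 17 readouts of Wnt signaling, Wnt-regulated DP genes and pathway components, 16 were tested at P24 and P28. The components include Ctnnb1, Tcf7l1 and Tcf7l2, so counts and medians of this list are not a measure of Wnt output. At P24, 2 rose and 4 fell, at P28, 2 rose and 4 fell, and 0 were called at P20 and P60, beside 26.6% of all genes at P24 and 35.5% at P28. The median log2 difference was -0.16 at P24, beside -0.01 over all genes tested, and 0.02 at P28. Fgf7 and Fgf10, growth factors that the DP sends to the epithelium, fell at both anagen ages. The log2 difference of Fgf7 was -1.82 (SE 0.21, adjusted p = 0.00184) at P24 and -2.18 (SE 0.41, adjusted p = 0.00758) at P28, and that of Fgf10 was -1.35 (SE 0.39, adjusted p = 0.0378) at P24 and -1.80 (SE 0.51, adjusted p = 0.0324) at P28. The P28 call of Fgf7 held in all 6 fits that left out a P28 library, while that of Fgf10 held in 2, those without control 2 (-2.42) and without control 3 (-1.32). Fgf7 was -2.69 without control 2 and -1.84 without control 3. Apcdd1, a Wnt inhibitor, fell at P28 (log2 difference -1.18, SE 0.17, adjusted p = 0.0029), and Nkd2, a Wnt feedback inhibitor, fell at P24 (log2 difference -0.81, SE 0.19, adjusted p = 0.0179) and at P28 (log2 difference -1.08, SE 0.22, adjusted p = 0.00991). Without control 2 and without control 3, the P28 log2 differences were -1.18 and -1.09 for Apcdd1 and -1.28 and -0.87 for Nkd2.

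Nkd1, a relative of Nkd2, rose at P28 (log2 difference 1.24, SE 0.14, adjusted p = 0.00103), and Tcf7, a transcription factor of the pathway, rose at P24 (log2 difference 0.88, SE 0.17, adjusted p = 0.00944) and at P28 (log2 difference 0.96, SE 0.17, adjusted p = 0.00598). Dkk3 rose at P24 (log2 difference 0.87, SE 0.19, adjusted p = 0.0144). The P24 calls of Fgf7 and Tcf7 held in all 6 fits that left out a P24 library and that of Dkk3 in 5, while those of Fgf10 and Fzd8 held in 1 and that of Nkd2 in 2. Without control 2 and without control 3, the P28 log2 differences were 1.205 and 1.31 for Nkd1 and 0.88 and 1.12 for Tcf7, and the P28 calls of Apcdd1, Nkd1, Nkd2 and Tcf7 held in all 6 fits that left out a P28 library. The counts at P28 were 2 higher and 5 lower without control 2, the added gene being Axin2, 2 and 4 without control 3, and 2 and 3 without control 1, where Fgf10 was lost. Axin2, a feedback target of Wnt signaling, did not pass at P28 with all libraries (log2 difference -0.61, SE 0.23, adjusted p = 0.0813) and stood at 3046, 2548 and 4616 in controls against 2463, 2059 and 1996 in dM1/2, without overlap. It was -0.79 without control 2 and -0.36 without control 3. Axin2 is named here as a common Wnt readout, chosen after its values were seen.

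The genes whose profile over the 24 libraries was most like that of each member were named by Pearson's r of log2(normalized reads + 1) among 13257 genes. These values are a description, since the libraries share age, sex, depth and genotype groups. For Rspo2 they were Edn3 (r = 0.978), Scube1 (0.977) and Lrrtm3 (0.975), and for Rspo3 they were Scube1 (0.976), Alx4 (0.973) and Hhip (0.970). For Rspo1 they were Dcc (0.974), Shisa9 (0.962) and Scn4b (0.962), and for Rspo4 they were Net1 (0.963), Ugt8a (0.957) and Itga1 (0.949). Among the receptors, Lgr4 was closest to Ankrd50 (0.941), Dcaf12l1 (0.939) and St6galnac3 (0.938), and Lgr5 to C1qtnf2 (0.966), Mrgprf (0.960) and Cryab (0.959). Lgr6 and Znrf3 had no match as close. Lgr6 reached 0.852 with Nptx2, 0.841 with Sema5a and 0.839 with Slc12a1, and Znrf3 reached 0.866 with Camsap1, 0.861 with Soga1 and 0.851 with Acvr2b. Among the members themselves, the 4 ligands had r between 0.819 and 0.957 with one another over the 24 libraries.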

How the data were processed

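RNA of YFP-sorted dermal papilla cells was depleted of ribosomal RNA and sequenced from directional libraries. Per the submitters' processing notes and the study's methods, reads were trimmed with Trimmomatic, mapped to mm10 with TopHat2 and counted per Ensembl gene of GRCm38.p4 with HTSeq, and DESeq2 divided the counts by size factors. The strand setting of the counting was not given in the sources used here. The deposited signal values are these normalized reads, 4 tables with 6 libraries each, and the authors' own fold changes, p-values and means over the libraries were not used. The authors' mean column in every table equals the mean over all 24 libraries, so the 4 tables share 1 normalization, and comparisons between ages were also run with TMM scaling. Whole reads were recovered for 100% of the values (tolerance 0.01 reads), and DESeq2 1.42.0 and edgeR 4.0.16 (quasi-likelihood, TMM) were run on those reads as alternatives. No library was a copy of another of its group (chi-square per gene between 10.4 and 1485).

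The reported test was limma 3.58.1 with a mean-variance trend in R 4.3.3 on log2(normalized reads + 1), over genes with a mean of at least 10, with Benjamini-Hochberg adjustment over all genes and calls at 0.05, two-sided. Log2 differences on this scale understate the change of low genes, while fold changes are ratios of group means. Genotypes were compared within the 6 libraries of an age, control ages in 1 fit of 12 libraries, and effects between ages by interaction contrasts. The libraries came from individual mice. Other settings were a pseudocount of 10, no filter, a replicate block, 1 fit over all 24 libraries and leaving out each library in turn. The comparison of effects between P28 and P60 and a limma fit on TMM-scaled log2-CPM (prior count 2) were added after the values had been seen. Intervals are 95%, and a count of 0 allows up to 3 reads, which covers counting error only.

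The scripts were tested on simulated data. The members and the gene lists were chosen with earlier results of these data known. Named were all 9 members, from each gene list up to 3 genes with the largest rise and up to 3 with the largest fall among those called at P24 and at P28, and for each member the 3 genes closest in profile, leaving out predicted gene models.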

Additional observations from a re-analysis of the deposited data

Results flagged for a closer look

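In 5 cases the difference between dM1/2 and control itself differed between ages by limma's test of that difference. Between P28 and P60, 1 of the 8 genes tested was called, where 18.2% of all genes were. This comparison was added after the values had been seen. The gene was Lgr6, whose effect at P28 exceeded that at P60 by 5.42 on the log2 scale. Between anagen and telogen, 4 of the 8 were called, where 30.2% of all genes were. With the mean effect at P24 and P28 set against that at P20 and P60, the differences were -1.45 for Rspo2, -0.79 for Rspo3, -0.60 for Lgr4 and 2.41 for Lgr6. The effects of Rspo2 and Rspo3 at P60 alone were more negative than those at P24. Anagen libraries were deeper than telogen libraries and came from males, while those of P20 came from females, and the parts of stage, sex and depth in these differences cannot be told apart. The calls of Rspo2, Lgr4 and Lgr6 held in all 24 fits that left out a library, and that of Rspo3 held in 12 of them.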

How the results depend on the processing

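Of 1480 values of single genes under 31 other settings, 1386 kept their direction and their side of the threshold, 25 lost and 32 gained a call, and 37 reversed. At P20 the count of members called was 0 and ranged from 0 to 1 when a library was left out (Lgr6 without P20 control 1). At P24 it was 1 and ranged from 1 to 2 (adding Znrf3 without P24 control 3 and Lgr5 without P24 dM1/2 1). At P28 it was 5, with 5 by edgeR and 6 by DESeq2. At P60 it was 0, with 2 by DESeq2 (Rspo2 and Lgr6) and 1 in the fit over all 24 libraries (Rspo2). Between anagen and telogen it was 4, with 4 by edgeR and 5 by DESeq2. Between P28 and P24 it was 0, with 3 by DESeq2, 1 in the fit over all 24 libraries (Lgr6) and 0 to 3 when a library was left out (3 without P28 control 2, and Lgr6 without P24 control 2). Between P28 and P60 it was 1, with 2 by DESeq2 (adding Rspo4) and 1 to 2 when a library was left out (adding Rspo2 without P28 control 2 and Rspo4 without P60 dM1/2 1). The same replicate numbers recur in both genotypes, but at no age did every pair of libraries with the same number deviate together (correlations from -0.40 to 0.34 over the 4 ages), and the number of libraries closest to their own number was 0 of 6 at P24, 1 of 6 at P28, 3 of 6 at P60 and 6 of 6 at P20. With the replicate block the count of members was 1 at P60 (Lgr6, adjusted p = 0.0444) and 2 between P28 and P60 (adding Rspo3, adjusted p = 0.043), and in the other comparisons between genotypes the count did not move. Over all genes, the block called 439 genes at P20 in place of 60, 2366 at P24 in place of 3735 and 6 at P60 in place of 0. DESeq2 called 663 at P20 and 26 at P60, and the fit over all 24 libraries called 23 and 19. Leaving out a library of P20 gave between 0 and 1530 genes.
Under edgeR and DESeq2 respectively, Lgr5 reversed to 0.59 and 0.60 from P24 to P28 in controls and to -0.54 and -0.54 between the effects at P28 and P24, and Lgr6 reversed to -0.049 and -0.062 from P20 to P60 in controls. When a library was left out, log2 differences that were not called changed sign within these ranges. Between genotypes they were Rspo1 at P20 (-0.12 to 0.17), Rspo4 (-1.48 to 0.14) and Lgr6 (-0.78 to 0.31) at P24, Lgr5 at P28 (-1.51 to 0.90), and Rspo4 (-1.20 to 0.023), Lgr4 (-0.095 to 0.15) and Znrf3 (-0.15 to 0.21) at P60. In controls they were Rspo2 (-0.67 to 0.10), Lgr5 (-1.57 to 0.84) and Znrf3 (-0.18 to 0.046) from P24 to P28, and Rspo4 (-0.19 to 0.048) and Lgr6 (-0.29 to 0.54) from P20 to P60. Between the effects at P28 and P24 they were Lgr4 (-0.27 to 0.027), Lgr5 (-0.75 to 1.66) and Znrf3 (-0.20 to 0.022), between those at P28 and P60 Rspo1 (-0.49 to 0.052) and Lgr5 (-2.05 to 0.37), and between anagen and telogen Rspo1 (-0.21 to 0.061) and Znrf3 (-0.0086 to 0.17). The cause of these changes was not tested. P60 libraries had the lowest depth, and a single read there was worth up to 2.52 normalized reads.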
